A study of Mus musculus with 6 samples.

Results

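The genes described here encode the subunits of the proteasome in mouse quadriceps femoris, a thigh muscle. Members were all probes whose gene symbol begins with Psma, Psmb, Psmc or Psmd followed by a digit, and 69 of the 46632 probes on the array met this rule, for 40 of 17711 gene symbols. Of these symbols, 39 name subunits or assembly chaperones of the proteasome. The remaining symbol, Psmc3ip, names a meiotic recombination protein that is no subunit, and it is given apart.

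The proteasome is the protease complex that degrades proteins marked with ubiquitin. Its barrel, the 20S core, is built of outer alpha rings, which form the gate, and inner beta rings, which hold the catalytic sites. The 19S regulatory particle caps the barrel: its base holds ATPases that unfold the substrate, and its lid holds the enzyme that removes ubiquitin. In skeletal muscle this route is known for breaking down contractile proteins during fasting and atrophy, where the ubiquitin ligases Trim63 (MuRF1) and Fbxo32 (atrogin-1) mark substrates.

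RNA was measured on 3 arrays of RORalpha1delDE transgenic mice and 3 arrays of wild-type mice. The transgene is a truncated human RORalpha1, a nuclear receptor, without its E region and with part of its hinge, the D region, removed, and the human skeletal alpha-actin (HSA) promoter drives it in skeletal muscle. Mice of both genotypes were on a backcrossed C57BL/6 background, ate standard chow, were fasted overnight and were killed in the morning, so every muscle sampled came from a fasted animal. Age and sex are not given in the sources used here, nor is whether the controls were littermates.

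The 6 arrays shared 1 chip, on which the transgenic ones followed the wild-type ones, so an effect of chip position cannot be told apart from genotype. Between arrays 1 and 2 of a genotype, 0 of 5236 bright probes showed a 2-fold difference, and what difference there was at 1 probe of a gene did not recur at another (r = 0.0316 for transgenic and 0.0341 for wild type, across 525 genes). They were therefore averaged and counted as 1 sample, which left n = 2 samples per genotype. Set against those arrays, replicate 3 had 2-fold differences at 55 and 56 bright probes in transgenic mice, against 90 and 101 in wild type. Markers of skeletal muscle had like medians on every array, between -0.02 and 0.11 log2 of the wild-type mean on transgenic arrays, against -0.01 to 0.00 on wild-type arrays. Among them Myh1 varied more, with 11.56, 11.62 and 10.87 on transgenic arrays, against 11.03, 10.92 and 11.68 on wild-type arrays. The probe for Rora read 11.95, 12.12 and 12.54 on transgenic arrays, against 12.19, 12.11 and 12.03 on wild-type arrays, and its place relative to the truncated human transgene is not known, so it checks nothing about the genotypes. Adipocyte markers, of which 4 of 8 were measured, had medians of -3.30, -3.13 and -2.28 log2 against the wild-type mean on transgenic arrays, against -0.38, -0.35 and 0.38 on wild-type arrays, and their part in the values below was not tested.

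Of the 69 member probes, 53 were kept, meaning that they were detected on at least 3 of the 6 arrays, and 47 were detected on all 6. The other 16 included 15 that were detected on no array. Of the 39 subunit and chaperone genes, 36 had a kept probe. The exceptions were 3 alpha subunits: Psma5 was detected on 1 wild-type array only, and Psma6 and Psma8, a form of alpha subunit known from testis, were not well above background on any array. Another 11 genes, Psma1 and Psma3 among them, had both a kept probe and a probe detected nowhere. A missing signal at a probe therefore need not mean that the transcript was absent. Which of these holds for Psma5, Psma6 and Psma8 was not tested. For a gene read by several kept probes, values are those of the probe with the highest mean unless stated.

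No proteasome transcript was shown to differ between transgenic and wild-type quadriceps, and the measured differences were small. No member probe passed the test (0 of 53 at an adjusted p under 0.05, limma with Benjamini-Hochberg adjustment over 14420 kept probes), where 0.00693% of all kept probes did, a single probe, that for Ucp1, the uncoupling protein of brown fat. At an unadjusted p under 0.05 there were 2 of 53 member probes, beside 7.64% of all kept probes. With the 6 arrays taken as separate samples, 0 of 53 member probes again passed, against 0.374% of all kept probes. Differences are given as transgenic minus wild type on the normalised log2 scale, with the standard error (SE) from limma. Over the 36 genes the median difference was 0.03, with 20 genes above 0 and 16 below, beside a median of 0.02 over all kept probes, of which 47.2% lay below 0.

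The differences were also small in size. The 36 genes ran from -0.33 for Psma1 to 0.45 for Psmd5, and none differed by more than 0.5 log2, whereas 10.4% of all kept probes did. The median absolute difference was 0.091 over the 36 genes, 0.137 over all 53 kept member probes and 0.184 over all kept probes. Of the 53 member probes, 1 differed by more than 0.5 log2, and 92.5% had a 95% interval within 1 log2 unit of 0. Member probes were also brighter, with a median level of 11.88 over the 53, against 8.03 over all kept probes, and the part of brightness in these sizes was not tested. For 35 of the 36 genes (97.2%) the whole 95% interval of the difference lay within 1 log2 unit, a 2-fold change, of 0 in either direction, as it did for 83.3% of all kept probes. The exception was Psmd11, a lid subunit near background, whose interval ran from -0.82 to 1.48. Changes smaller than these intervals were not detectable with 2 samples per genotype. In muscle RNA as a whole, fewer cells of a type and less RNA per cell cannot be told apart.

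**Figure D1:**
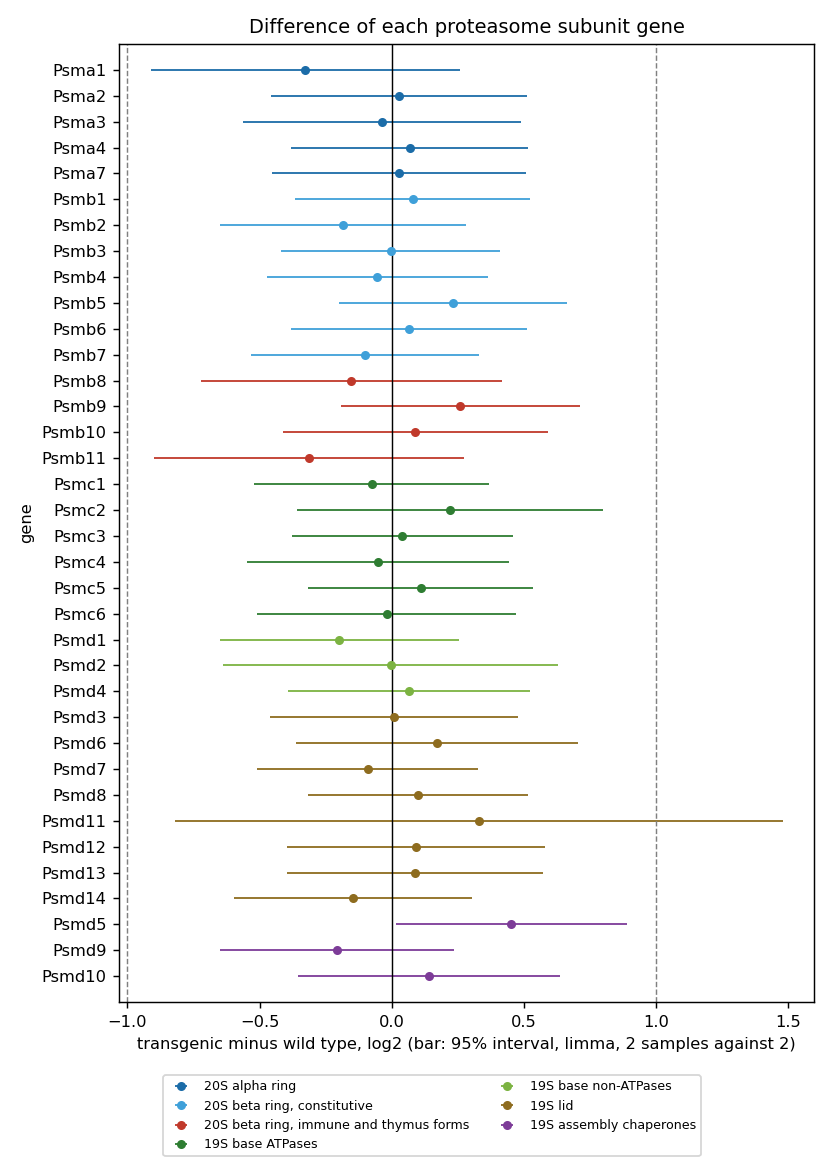
Log2 difference (transgenic minus wild type) at the probe with the highest mean of each of 36 proteasome genes, grouped by role, with 95% intervals from limma (n = 2 samples per genotype). The points lie between -0.33 and 0.45, and every interval except that of Psmd5 spans 0.

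Among the alpha subunits, which form the outer rings and the gate of the core, 5 of 8 genes were measured and their median difference was 0.03. Psma1 had the lowest difference of any member. It read 11.74, 11.83 and 12.12 on transgenic arrays 1, 2 and 3, against 12.55, 12.48 and 12.03 on wild-type arrays 1, 2 and 3, a difference of -0.33 ± 0.24 (SE; adjusted p = 0.755). The genotypes overlapped, because replicate 3 of the transgenic mice lay above replicate 3 of wild type. Psma3 read 14.09, 14.04 and 14.50 on transgenic arrays, against 14.17, 14.31 and 14.39 on wild-type arrays, and again the highest array was transgenic replicate 3 (difference -0.04 ± 0.22). Psma4 had the highest difference of the ring, 0.07 ± 0.18, and Psma2 and Psma7 stood at 0.03 each.

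The constitutive beta subunits include the catalytic ones: Psmb5 carries the chymotrypsin-like site, Psmb6 the caspase-like site and Psmb7 the trypsin-like site. All 7 genes of this ring were measured, with a median difference of -0.00. Psmb5 read 12.82, 12.78 and 12.98 on transgenic arrays, against 12.63, 12.71 and 12.65 on wild-type arrays. Every transgenic array was above every wild-type array, by a difference of 0.23 ± 0.18 that did not pass the test (adjusted p = 0.762). Psmb6 read 13.90, 13.71 and 14.04 on transgenic arrays, against 14.00, 13.74 and 13.85 on wild-type arrays, and the genotypes overlapped (0.06 ± 0.18). Psmb7 also overlapped, with 14.22, 13.90 and 14.10 on transgenic arrays, against 14.03, 14.17 and 14.27 on wild-type arrays. Its difference was -0.10 ± 0.18 at this probe and 0.14 and 0.18 at its other kept probes, so its probes did not share a sign. Psmb2, a beta subunit without a catalytic site, had the lowest difference of the ring. It read 12.40, 12.47 and 12.70 on transgenic arrays, against 12.67, 12.69 and 12.83 on wild-type arrays (-0.18 ± 0.19), so transgenic replicate 3 lay just above wild-type arrays 1 and 2.

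Psmb8, Psmb9 and Psmb10 are the forms that interferon induces and that take the places of Psmb5, Psmb6 and Psmb7 in the immunoproteasome, and Psmb11 is the form known from the thymus. Their median difference was -0.03. Psmb8 read 7.43, 7.58 and 7.04 on transgenic arrays, against 7.10, 7.45 and 7.58 on wild-type arrays. Transgenic replicate 3 was the lowest array, the difference was -0.15 ± 0.23, and a second probe gave 0.02. Psmb9 read 7.16, 7.25 and 7.46 on transgenic arrays, against 6.93, 7.18 and 7.09 on wild-type arrays, with a single wild-type array above the lowest transgenic one (0.26 ± 0.18, adjusted p = 0.749). Psmb10 read 9.50, 9.47 and 9.54 on transgenic arrays, against 9.26, 9.19 and 9.63 on wild-type arrays, and the highest of all was wild-type replicate 3 (0.09 ± 0.20; a second probe gave 0.38). Psmb11 was detected on 1 transgenic and 2 wild-type arrays and had a difference of -0.31 ± 0.24. Of the interferon and antigen presentation genes, 10 of 12 were measured, none passed the test, and their median difference was -0.05.

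The base of the regulatory particle holds 6 ATPases, Psmc1 to Psmc6, whose ring unfolds substrates and opens the gate. All 6 were measured, 3 above 0 and 3 below, with a median difference of 0.01. Psmc3 read 13.07, 12.95 and 13.06 on transgenic arrays, against 13.01, 12.93 and 13.02 on wild-type arrays. Its arrays lay closely together in both genotypes, and the difference was 0.04 ± 0.17 with a 95% interval from -0.38 to 0.46. Psmc1 had the lowest difference of the group, -0.08 ± 0.18. Psmc2 had the highest, with 8.39, 8.75 and 8.84 on transgenic arrays, against 8.83, 8.66 and 8.23 on wild-type arrays. These overlapped fully (0.22 ± 0.24), and without wild-type replicate 3 the difference was -0.04.

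The base also holds the scaffold subunits Psmd1 and Psmd2 and the ubiquitin receptor Psmd4. Psmd1 read 13.67, 13.61 and 13.87 on transgenic arrays, against 13.99, 14.04 and 13.89 on wild-type arrays. Every transgenic array was below every wild-type array, though transgenic replicate 3 only just (-0.20 ± 0.18, adjusted p = 0.797), and a second probe gave -0.18. Psmd4 overlapped, with 13.73, 13.76 and 13.99 on transgenic arrays, against 13.99, 13.75 and 13.74 on wild-type arrays (0.06 ± 0.19), and Psmd2 stood at -0.00 ± 0.26.

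The lid removes ubiquitin chains before the substrate enters the core. Its 8 genes were all measured, 6 above 0 and 2 below, with a median difference of 0.09. Psmd14, the deubiquitinating enzyme of the lid, read 9.79, 9.68 and 9.71 on transgenic arrays, against 10.23, 9.76 and 9.74 on wild-type arrays. The genotypes overlapped, and the difference was -0.15 ± 0.18. Psmd8, a structural lid subunit, read 14.15, 14.24 and 14.25 on transgenic arrays, against 14.16, 14.10 and 14.12 on wild-type arrays (0.10 ± 0.17). Psmd11, which links lid and core and had the highest difference of the lid, read 5.95, 6.04 and 6.60 on transgenic arrays, against 6.80, 6.54 and 5.27 on wild-type arrays. Here the arrays of each genotype differed more among themselves than the genotypes did (0.33 ± 0.47), wild-type replicate 3 was the lowest array, and without it the difference was -0.37.

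Psmd6, another lid subunit, had 2 kept probes that differed in brightness and in the size of the difference. At the probe with the highest mean it read 9.04, 9.08 and 9.54 on transgenic arrays, against 9.19, 9.10 and 9.12 on wild-type arrays, and the genotypes overlapped (0.17 ± 0.22). At a second probe, detected on 3 transgenic and 2 wild-type arrays, it read 6.85, 6.78 and 7.26 on transgenic arrays, against 6.69, 5.68 and 6.07 on wild-type arrays. That probe did not overlap and had the highest difference of any member probe, 0.91 ± 0.21. Its unadjusted p was 0.0053 and its adjusted p 0.569 (limma). Both probes had the same sign, and why the sizes differed was not tested. Of the 13 genes with more than 1 kept probe, 6 had the same sign at all of them.

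The remaining members are chaperones that assemble the base and leave before the particle is finished: Psmd5, Psmd9 and Psmd10. Psmd5 had the highest difference of the 36 genes. It read 7.01, 7.27 and 7.34 on transgenic arrays, against 6.93, 6.62 and 6.80 on wild-type arrays. Every transgenic array was above every wild-type array, and the difference of 0.45 ± 0.18, or 1.37-fold, had an unadjusted p of 0.045 and an adjusted p of 0.647 (limma). Psmd9 went the other way, with 7.48, 7.72 and 7.71 on transgenic arrays, against 7.82, 8.09 and 7.77 on wild-type arrays, again without overlap (-0.21 ± 0.18), but a second probe gave 0.38. Psmd10, also known as gankyrin, overlapped (0.14 ± 0.20). Over all 36 genes, Psmb5 and Psmd5 were higher on every transgenic array, and Psmd1, Psmd7 and Psmd9 lower. Among the 53 probes, 3 were higher without overlap and 4 lower, beside 12.1% of all kept probes that were higher and 9.76% that were lower. Psmc3ip, the gene that is no subunit, read 7.43, 7.44 and 7.60 on transgenic arrays, against 7.58, 7.42 and 7.01 on wild-type arrays (0.26 ± 0.23).

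**Figure D2:**
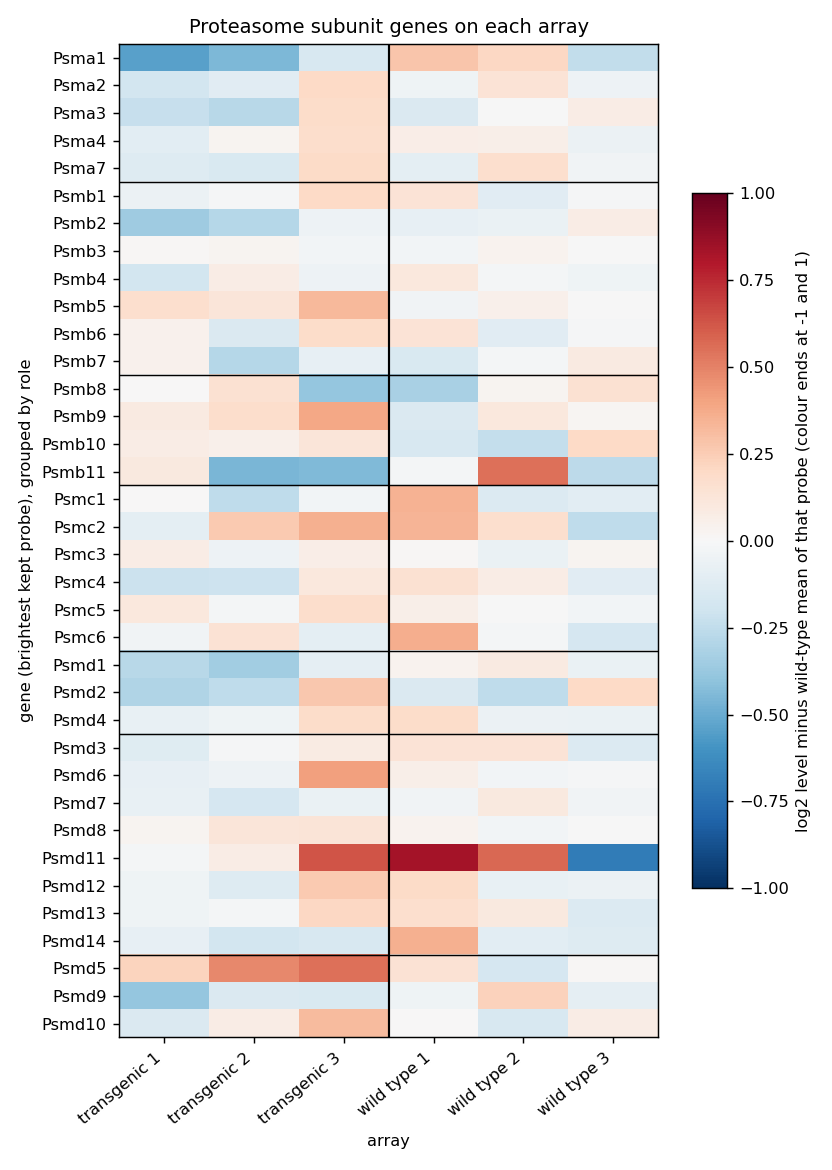
Heat map of 36 proteasome genes (rows, grouped by role) on the 6 arrays (columns, transgenic left), as log2 intensity minus the mean of wild type. The column of transgenic replicate 3 stands out as higher for most genes, and Psmd11 has the widest spread among arrays.

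Within the transgenic group the members did move together between arrays. Transgenic replicate 3 lay above the mean of transgenic arrays 1 and 2 for 31 of 36 genes (86.1%), by a median of 0.22 log2, beside 50.9% of all kept probes and a median of 0.01. Genes higher in replicate 3 came from the alpha ring, where the median was 0.34, as well as from the ATPases (0.11) and the lid (0.20). The 5 genes that were not higher there were Psmb3, Psmc6, Psmd14, Psmb8 and Psmb11. Of the 20 genes with a mean above 12, 19 were higher in replicate 3, and of all 1089 kept probes at that level 55.7% were. This contrast was looked at after the values had been seen and compares 1 sample with another, so it has no test. Its size depended on the scaling: with each array centred on its median instead of quantile normalised, 24 of 36 genes (66.7%) were higher in replicate 3, by a median of 0.11, where 41.1% of all kept probes were, by a median of -0.06. With the authors' deposited log2 values the count was 28 of 36 (77.8%), by a median of 0.19, beside 49.7% of all kept probes.

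The same transgenic replicate stood apart in other genes. Slow fibre markers, of which 6 of 7 were measured, had a median of -4.80 log2 against the wild-type mean on transgenic replicate 3, against 0.59 and 0.64 on transgenic arrays 1 and 2. Macrophage and immune markers, 5 of 9 measured, had medians of 1.28 on transgenic replicate 3, against -0.03 and 0.37 on arrays 1 and 2. The part of either in the proteasome values was not tested. Without transgenic replicate 3 the median difference of the 36 genes from wild type was -0.06, with 12 genes above 0 and 24 below. Without transgenic arrays 1 and 2 it was 0.15. Over all kept probes the median was 0.02 in both cases.

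Wild-type replicate 3, by contrast, lay below the mean of arrays 1 and 2 for 26 of 36 genes (72.2%), by a median of -0.07, beside 47.7% of all kept probes and a median of 0.02. With median centring the median of all kept probes itself moved to -0.18 in this contrast (70.8% lower), and that of the 36 genes to -0.22 (30 lower). Without wild-type replicate 3 the median difference between genotypes over the 36 genes was -0.01, and without wild-type arrays 1 and 2 it was 0.06. Over all kept probes these medians were 0.02 and 0.01.

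**Figure D3:**
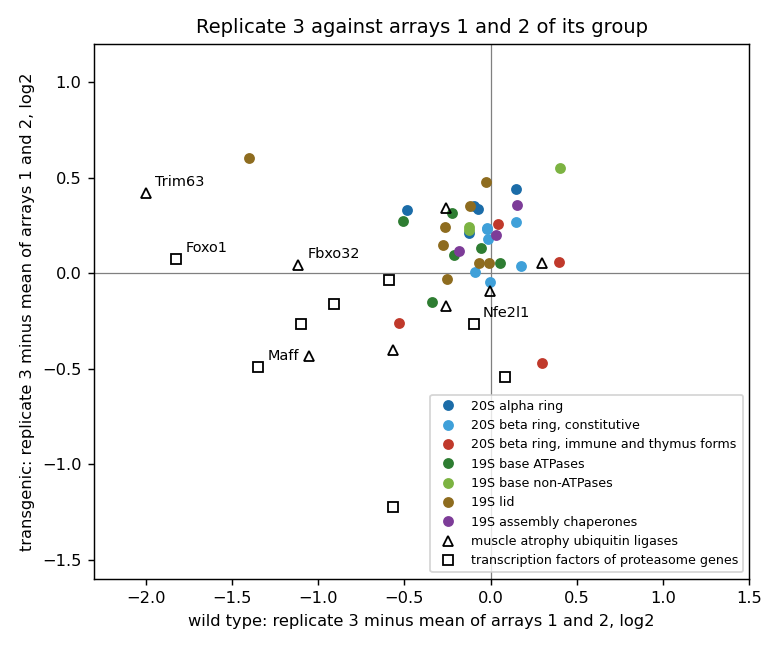
Replicate 3 minus the mean of arrays 1 and 2 of the same genotype (log2), with transgenic on the vertical axis and wild type on the horizontal axis, for 36 proteasome genes by role and for atrophy ligases and transcription factors. Most proteasome genes lie above 0 on the transgenic axis and close to 0 on the wild-type axis, whereas Trim63, Fbxo32 and Foxo1, and among the members Psmd11, lie far to the left.

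The ubiquitin ligases of muscle atrophy, which deliver substrates to the proteasome, included genes with a far wider spread between arrays than most proteasome genes. Trim63 read 11.76, 11.78 and 12.19 on transgenic arrays, against 13.98, 13.90 and 11.94 on wild-type arrays 1, 2 and 3. Only wild-type arrays 1 and 2, counted as 1 sample, were high, and wild-type replicate 3 lay within the transgenic range. Fbxo32 read 12.81, 12.81 and 12.85 on transgenic arrays, against 13.90, 13.90 and 12.79 on wild-type arrays. Foxo1, a transcription factor that activates both ligases in fasting, read 9.26, 9.29 and 9.35 on transgenic arrays, against 10.98, 10.73 and 9.03 on wild-type arrays. For both, wild-type arrays 1 and 2 were again the high ones, and wild-type replicate 3 was the lowest of all 6 arrays. Their differences were -0.96 ± 0.61 for Trim63, -0.52 ± 0.36 for Fbxo32 and -0.63 ± 0.55 for Foxo1, and none passed the test (adjusted p 0.730, 0.747 and 0.787). Without wild-type arrays 1 and 2 these differences were 0.03, 0.04 and 0.29, and without wild-type replicate 3 they were -1.96, -1.07 and -1.54. Over the 36 proteasome genes, wild-type arrays 1 and 2 stood 0.07 above wild-type replicate 3 in the median, with Psmd11 at 1.40, Psmc2 at 0.51 and Psma1 at 0.49. The same median was 0.41 for the 8 ligases and 0.75 for the 8 transcription factors of proteasome genes. All 8 ligases of the list were measured, 3 above 0 and 5 below, with a median difference of -0.22. Traf6, a ligase of inflammatory signalling, was the highest of them at 0.41 ± 0.17, but its second probe gave -0.71.

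**Figure D4:**
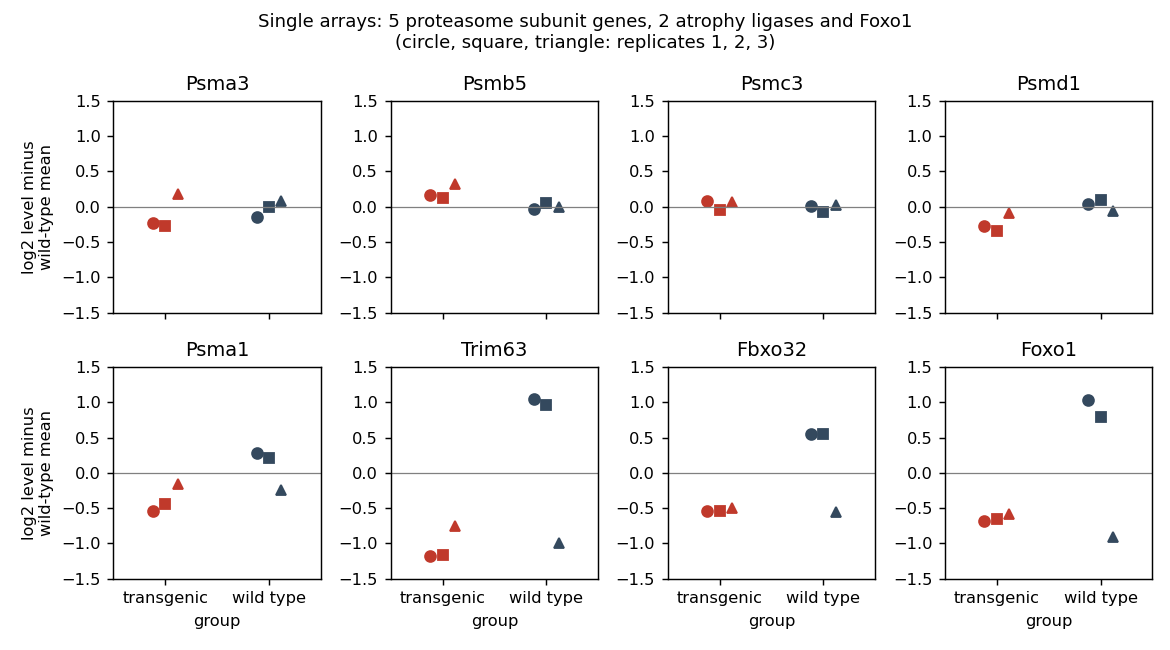
Log2 intensity minus the wild-type mean on each array for 5 proteasome genes (Psma1, Psma3, Psmb5, Psmc3, Psmd1) and for Trim63, Fbxo32 and Foxo1, transgenic left and wild type right, with arrays 1 and 2 of a genotype counted as 1 sample. The proteasome genes span less than 1 log2 unit, whereas Trim63, Fbxo32 and Foxo1 are high on wild-type arrays 1 and 2 alone.

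The transcription factors of proteasome genes were 8, with 2 above 0, 6 below and none past the test (median -0.19). Nfe2l1 (Nrf1), the factor known to raise proteasome genes when the proteasome is inhibited, read 14.33, 14.30 and 14.05 on transgenic arrays, against 14.18, 14.13 and 14.05 on wild-type arrays (0.08 ± 0.19). Its partner Maff had the lowest difference of the list, with 7.59, 7.69 and 7.15 on transgenic arrays, against 9.00, 8.86 and 7.58 on wild-type arrays (-0.86 ± 0.45, adjusted p = 0.694). The high arrays of Maff were the same wild-type pair as those of Trim63, and without that pair its difference was -0.19.

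No gene of the wider ubiquitin and proteasome pathway passed the test either (0 of 55 kept probes, limma), the ligases and transcription factors above included. At an unadjusted p under 0.05 there were 5 of these 55 probes (limma), beside 7.64% of all kept probes. Pomp, the chaperone that matures the core, read 13.52, 13.60 and 13.81 on transgenic arrays, against 13.33, 13.36 and 13.24 on wild-type arrays. Every transgenic array was above every wild-type array (0.39 ± 0.19, adjusted p = 0.672). Of the 6 genes of core assembly 3 were measured, all above 0, where 47.2% of all kept probes lay below 0. The others were Psmg1 at 0.05 ± 0.19 and Psmg3 at 0.16 ± 0.23. Zfand5, a ubiquitin-binding protein that stimulates the proteasome and is known to be induced in atrophying muscle, had the lowest difference of the regulatory particle's partners. It read 6.44, 6.20 and 6.21 on transgenic arrays, against 6.76, 7.01 and 7.01 on wild-type arrays, without overlap (-0.68 ± 0.18, adjusted p = 0.579). Among the activators and the inhibitor, all 5 measured, the median was 0.11, from -0.24 for the regulator Psmf1 to 0.23 for Psme4, an alternative cap of the core. A second, dimmer probe of Psme4 gave 0.66. The shuttle factor Ubqln4, which carries ubiquitinated proteins to the proteasome, stood at 0.42 ± 0.17 (adjusted p = 0.647), and Usp14, which trims ubiquitin at the proteasome, at 0.08 ± 0.18. Of ubiquitin and its activating enzymes, 1 of 6 genes was measured, Uba6 at -0.31 ± 0.23.

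Promoters were read to see whether members carried the motifs of the factors above and of RORalpha. RefSeq entries on GRCm38.p6 were matched for 33 of the 40 symbols, 32 of them subunit or chaperone genes, which are counted here without Psmc3ip, and the 250 bases before each start were searched on both strands. TGACNNNGC, the antioxidant response element core read by Nfe2l1 with small Maf partners, was found in 5 of 32 (15.6%), among them the catalytic Psmb5 and Psmb6, and in 11.5% of all 27025 genes. AGGTCA, the core read by RORalpha and by many other nuclear receptors, was found in 9 of 32 (28.1%) and in 15.8% of all genes. A stretch TGACCT followed by any base and GC would match both. The FoxO motif GTAAACA was found in 0 of 32 (3.54% of all genes), the STAT motif TTCNNNGAA in 1 of 32 (Psmb8; 8.13% of all genes), and the interferon-stimulated response element core, GAAA repeated after 2 further bases, in 3 of 32 (9.38%, against 3.46% of all genes). The 8 measured genes with AGGTCA had a median difference of 0.06 and the 22 without it one of 0.05. The 5 with TGACNNNGC had one of 0.06 and the 25 without it one of 0.03. These motifs were chosen with counts in view, and a match describes letters only, not a bound site.

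Sequences are shown for the catalytic subunits with an antioxidant core, for 3 regulatory particle genes with a nuclear receptor core, and for the immune form with the STAT motif. Each is from RefSeq (GRCm38.p6), written 5′ to 3′ on the strand of the gene, with the motif in capitals; TGACCT is AGGTCA on the opposite strand.
Psmb5, chr14:54618004-54618072, minus strand: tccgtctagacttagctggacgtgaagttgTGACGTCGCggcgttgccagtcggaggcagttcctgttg
Psmb6, chr11:70525318-70525356, plus strand: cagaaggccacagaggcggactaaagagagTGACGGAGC
Psmc2, chr5:21786515-21786580, plus strand: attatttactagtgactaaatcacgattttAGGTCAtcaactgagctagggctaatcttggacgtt
Psmc4, chr7:28050104-28050169, minus strand: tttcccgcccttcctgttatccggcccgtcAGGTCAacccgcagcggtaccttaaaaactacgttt
Psmd6, chr14:14121040-14121105, minus strand: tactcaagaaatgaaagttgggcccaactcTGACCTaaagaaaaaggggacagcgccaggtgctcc
Psmb8, chr17:34198068-34198136, plus strand: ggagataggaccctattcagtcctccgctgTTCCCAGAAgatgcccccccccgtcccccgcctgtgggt
Of these 6 genes, Psmb5 alone had arrays that did not overlap between genotypes at the probe with the highest mean, at the difference of 0.23 given above. Among all kept probes, 12.1% were higher without overlap and 9.76% lower, and Psmb6, which has the same core, overlapped. The core in Psmb5 begins 47 bases before the start and that in Psmb6 begins 9 bases before it.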

How the data were processed

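Total RNA of quadriceps was hybridised to Illumina BeadArrays. The deposited table holds linear signal intensity; the submitters' processing notes name BeadStudio 2.3.41. Its detection columns are p-values, per the file headers; since they increase with intensity, 1 minus the value was taken as p. The authors' second table holds log2 values centred on each probe's median. Any background correction by the authors is unstated. Signals were displaced against probe identifiers by 0 to 21 rows and were returned to their probes by matching array differences to the log2 values within 0.002 (46611 of 46632 probes). Spearman's rho of signal with detection value then was at least 0.997, from 0.052 to 0.062 before.

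Intensities were corrected by normexp with inferred negative controls, given an offset of 16 and quantile normalised as log2 values (neqc, limma 3.58.1, R 4.3.3; Python 3.11.15). A probe was kept if its detection p was under 0.05 on 3 or more of the 6 arrays (14420, of which 11335 had a symbol). Symbols came from the platform table and were checked against RefSeq (GRCm38.p6), which held 29921 of 29976 probes with 1 symbol and changed 0. Arrays of a genotype were averaged where r between probes of the same gene was under 0.1. Adjusted p-values come from limma (lmFit, eBayes, two-sided, threshold 0.05). The fit was also run on simulated data, with changes larger than any member difference, so that run does not cover small differences. An exact permutation test cannot go below 0.333 for 2 samples against 2, or 0.1 for 3 arrays against 3. No label ties an array to a mouse of its own. The p-values therefore measure the spread between these samples only, which may be technical. The number of arrays limits the precision.

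Members, lists, motifs and tests were chosen with earlier results of these data known. Named are the genes with the highest and lowest difference and the highest mean in each role, the catalytic subunits and their immune forms, the extremes of the other lists and a few regulators. Genes with probes differing in sign, and those without overlap of arrays, were added after their values were seen. Alternatives were the offset, background correction, scaling, the deposited log2 values, the detection filter, 6 separate arrays, blocks, an intensity trend, the threshold, the rule for several probes and leaving out arrays.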

Additional observations from a re-analysis of the deposited data

How the results depend on the processing

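No member probe and no probe of the other pathway genes passed the test under any alternative setting, and the lowest adjusted p of any member probe was 0.218 (limma, the second probe of Psmd6, with 6 separate arrays). The median difference of the 36 genes ran from -0.06, without transgenic replicate 3, to 0.15, without transgenic arrays 1 and 2. It was -0.05 with median centring. The probes called among all kept ones numbered 9 with an offset of 50, 3 with median centring, 8 on uncorrected intensities, 7 on the deposited log2 values, 0 among probes detected on all 6 arrays, 54 with 6 separate arrays, 13 where the RNA sample was a random block, 10 with an intensity trend, 3 at a threshold of 0.10 and 18 without transgenic arrays 1 and 2. Leaving out 1 array gave 1 to 8, the highest without transgenic replicate 3. The probe for Ucp1, called in the main fit, was detected on wild-type arrays only. Asking for detection on all 6 arrays therefore removed it before the test.

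The replicate numbers did not pair the arrays (correlations of deviations -0.014, 0.071 and 0.101, with 1 of 3 numbers matching its own best). With the replicate number as a block, 15 probes passed, and Mafk (-0.029) and Psmd11 (-0.0052) had the other sign, as they had with 6 separate arrays.

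Of 871 alternative values for 45 named genes, 835 kept direction and call and 36 had the other sign, none of them past the threshold. With median centring these were Nfe2l1 (-0.0087), Psmc3 (-0.0093), Usp14 (-0.0097), Psmb6 (-0.023), Psmd4 (-0.019) and Psmg1 (-0.035). Without transgenic arrays 1 and 2 they were Nfe2l1 (-0.050) and Psma3 (0.18). Without wild-type arrays 1 and 2 they were Foxo3 (0.43), Foxo1 (0.29), Fbxo32 (0.040), Trim63 (0.035), Psmc1 (0.030), Psmg1 (-0.090) and Psmb10 (-0.11). With the mean over a gene's kept probes they were Psmb7 (0.072) and Psmd9 (0.088). Leaving out 1 array gave ranges of -0.20 to 0.044 for Psmc1, -0.36 to 0.26 for Mafk, -0.25 to 0.039 for Psma3, -0.036 to 0.31 for Psmc2, -0.37 to 0.39 for Psmd11, -0.015 to 0.10 for Usp14, -0.67 to 0.018 for Foxo3, -0.039 to 0.10 for Psma4, -0.053 to 0.13 for Psmb6, -0.24 to 0.080 for Psmb8, -0.037 to 0.22 for Psmd10, -0.057 to 0.12 for Psmd4 and -0.051 to 0.24 for Rora. The cause was not tested.

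A signal over background limits the dim members: Psmb11, Psmd11 and the second probe of Psmd6 were not detected on every array. Nor were dimmer kept probes of Psmb2, Psmc4 and Psmd10. With 2 samples per genotype, and position on the chip tied to genotype, small changes cannot be resolved.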
